A study of Homo sapiens with 33 samples.

Results

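Nuclear genes for subunits of the mitochondrial respiratory chain were followed in THP-1 cells, a cell line from a human monocytic leukaemia, after retinoic acid (RA), tumor necrosis factor (TNF) or both. Genes were taken by the start of their symbol in the array annotation (NDUFA, NDUFB, NDUFC, NDUFS, NDUFV, UQCR, COX4, COX5, COX6, COX7, COX8 or ATP5), leaving out the NDUFAF assembly factors, with the brightest single-symbol probe set for each gene. The rule found 79 of the 19775 genes with such a probe set. Of these, 74 were subunits or bound partners of a complex: 33 of complex I, 6 of complex III, 17 of complex IV and 18 of complex V. The other 5 shared only the letters: the antisense or divergent transcripts NDUFB2-AS1, NDUFV2-AS1 and NDUFV1-DT and the pseudogenes ATP5MC2P1 and COX6A1P1. The subunits encoded in mitochondrial DNA had no probe set with a single symbol and were not analysed here, nor were 14 probe sets shared by several symbols with these prefixes.

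The respiratory chain lies in the inner mitochondrial membrane. Complex I takes electrons from NADH, complex III passes them from ubiquinol to cytochrome c, complex IV hands them to oxygen, and complex V, the ATP synthase, uses the resulting proton gradient to make ATP. Monocytes and macrophages change their use of this chain and of glycolysis when they differentiate or are activated, and electrons leaking from complexes I and III form superoxide.

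Each array held RNA from 1 well of the same cell line. At 40 h there were 6 wells with vehicle (0.1% ethanol), 5 with RA at 20 nM for 40 h, 5 with TNF at 5 ng/ml for the last 24 h, and 5 with RA for 40 h and TNF for the last 24 h. RA was given again after 16 h. The time course had 2 wells at 2 h of RA, 2 at 6 h and 3 at 16 h, and 5 vehicle wells. The treatment notes give 16 h as the harvest of these vehicle wells, while their titles and the design text call them 0 h controls. The titles of 3 of the 6 vehicle wells at 40 h also call them 0 h controls. Those 3 wells were counted here as harvested at 40 h. The p-values measure the spread between wells of 1 line. In such bulk RNA, fewer cells of a type and less RNA per cell cannot be told apart.

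Values are log2 of a probe set's signal over the median signal of its array. Array record numbers in the labels fell into separate runs, called set 1 (12 arrays, 3 of each 40 h group) and set 2 (21 arrays, with the time course and the other 40 h arrays), and the set was a term in the 40 h fit. Array medians ran from 18.9 to 45.2 signal units, and were low after 2 h of RA (23.2 ± 1.6, SD, n = 2) and 6 h (22.2 ± 4.7, n = 2) against 29.4 ± 4.3 (n = 5) for vehicle at 16 h and 33.6 ± 6.4 (n = 6) at 40 h. Dividing by a lower median raises all log2 values of an array alike. Against vehicle the median difference over all genes tested was 0.31 at 2 h and 0.381 at 6 h. For the cytosolic ribosomal proteins it was -0.159 and -0.187. The part of the array medians in these values was not tested. For this reason 2 other scalings, the recovered signals themselves and quantile normalization, are given beside the main results. The monocyte markers CEBPA (4760 units) and LYZ (2340 units) were bright, while MPO (31.7 units) and FCGR1A (22.2 units) were dim. Their list (9 of 10 with a probe set) summed to 7700 to 9960 units with vehicle at 40 h, 9720 to 12200 with RA, 6880 to 9870 with TNF and 10900 to 13100 with both. The 7 lymphocyte markers with a probe set summed to 269 to 552 units with vehicle at 40 h, 274 to 377 with RA, 477 to 627 with TNF and 414 to 562 with both, most of it from NKG7 (mean 237 units), with CD79A at 73.7 units and the other 5 between 16.8 and 21.3 units. The part of these shifts in the results below was not tested.

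Promoter sequences from RefSeq (GRCh38.p14) were found for 64 of the 74 subunits, each reaching from 250 bases before the start to 50 after it. Letters bound by 3 regulators of respiratory genes were searched on both strands. GCGCATGC, the core of the NRF1 site, was in 17.2% of these subunit promoters against 3.27% of all 27305 promoters. CCGGAAG, the core of the ETS site that GABPA binds, was in 26.6% against 10.7%, and AAGATGGC, a YY1 site, in 15.6% against 3.03%. AGGTCA, the core of many nuclear receptor sites, including those of RA receptors, was in 23.4% against 13.9%. Overlaps between motifs were not removed. The stretches below belong to members that differed between groups, and the capitals mark the NRF1 or ETS letters. NDUFA8 is shown from 24 bases before its start to 6 after it, where the NRF1 letters read on both strands in overlapping copies (chr9:122159774-122159803, minus strand). The others are the 200 bases before the start: NDUFS6 (chr5:1801207-1801406, plus strand), NDUFA6 (chr22:42090773-42090972, minus strand) and NDUFA1 (chrX:119871632-119871831, plus strand).
NDUFA8: acgcctgcgtgttgccggatGCGCATGCGC
NDUFS6: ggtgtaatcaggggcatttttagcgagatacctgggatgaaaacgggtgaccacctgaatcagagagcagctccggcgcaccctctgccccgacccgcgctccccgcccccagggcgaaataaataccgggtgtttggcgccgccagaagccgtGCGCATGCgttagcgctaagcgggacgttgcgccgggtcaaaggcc
NDUFA6: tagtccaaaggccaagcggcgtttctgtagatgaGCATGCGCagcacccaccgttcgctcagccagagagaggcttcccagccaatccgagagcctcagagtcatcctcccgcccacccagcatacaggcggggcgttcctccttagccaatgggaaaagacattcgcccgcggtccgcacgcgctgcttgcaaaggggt
NDUFA1: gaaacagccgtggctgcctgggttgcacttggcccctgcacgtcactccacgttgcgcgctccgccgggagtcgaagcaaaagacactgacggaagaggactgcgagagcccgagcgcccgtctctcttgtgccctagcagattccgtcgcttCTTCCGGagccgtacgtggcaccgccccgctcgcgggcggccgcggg
The NRF1 letters began 46 bases before the start of NDUFS6 and 166 before that of NDUFA6, and the ETS letters 47 before that of NDUFA1. NDUFA6 also had the YY1 letters 26 bases after its start. None of the letters searched was in the windows of NDUFV2, NDUFB8, COX7B, UQCR10 or NDUFA10. NDUFA9 had the YY1 letters 11 bases after its start and NDUFS1 the ETS letters 157 before it. AGGTCA or its reverse began 26 bases after the start of NDUFA1 and 25 after that of NDUFS6, and was not in the NDUFA8 window.

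After 40 h of RA alone, 1 respiratory chain gene rose and none fell. NDUFA8, an accessory subunit of complex I with paired cysteine motifs, was higher by 0.55 ± 0.16 on the log2 scale (SE, limma adjusted p = 0.0338). Among 12393 genes tested, RA called 2.77% as higher and 1.37% as lower, and 1 of the 74 members tested was called. The vehicle wells read from 4.88 to 5.66 for NDUFA8, with a median of 5.44, and the RA wells read 5.99, 5.62, 5.64, 5.95 and 6.18. All 5 RA wells lay above the vehicle median, and the groups overlapped only between the lower RA wells and the highest vehicle well. The difference was 0.49 within set 1 and 0.63 within set 2. It was called on recovered signals (0.52 ± 0.11, limma adjusted p = 0.00198) and after quantile normalization (0.52 ± 0.10, limma adjusted p = 0.000707), but leaving out single wells ended the call in 6 of 11 cases, with the difference between 0.46 and 0.60. Those wells were RA replicates 1, 4 and 5 and vehicle replicates 3, 4 and 6. The call was also lost with the replicate number as a block (0.55, limma adjusted p = 0.0542), without the intensity trend (limma adjusted p = 0.0802), without the array set (0.53, limma adjusted p = 0.252), and in set 1 alone (limma adjusted p = 0.402) or set 2 alone (limma adjusted p = 0.0676).

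No other subunit was called with RA at 40 h on the deposited scale. The median over the members was 0.068 against -0.003 over all genes, and the lowest difference was -1.315 (COX6B2). The 95% interval lay within 1 log2 unit of 0 for 69 of 74 members, against 67.7% of all genes. That limit is wide, as all 33 complex I members met it, the called NDUFA8 included. The median SE was also smaller for the members, at 0.157 against 0.216 for all genes. Complex I had a median of 0.052, complex III 0.148, complex IV 0.086 and complex V 0.061. NDUFB5, a membrane-arm subunit of complex I, had the next smallest adjusted p: its difference was 0.34 ± 0.14 (limma adjusted p = 0.247), and it was called on recovered signals at 0.31 (limma adjusted p = 0.0247) and after quantile normalization at 0.30 (limma adjusted p = 0.00303). COX7B, a small subunit of complex IV, read 0.28 ± 0.14 higher (limma adjusted p = 0.415) and of the 2 scalings was called after quantile normalization, at 0.22.

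**Figure D1:**
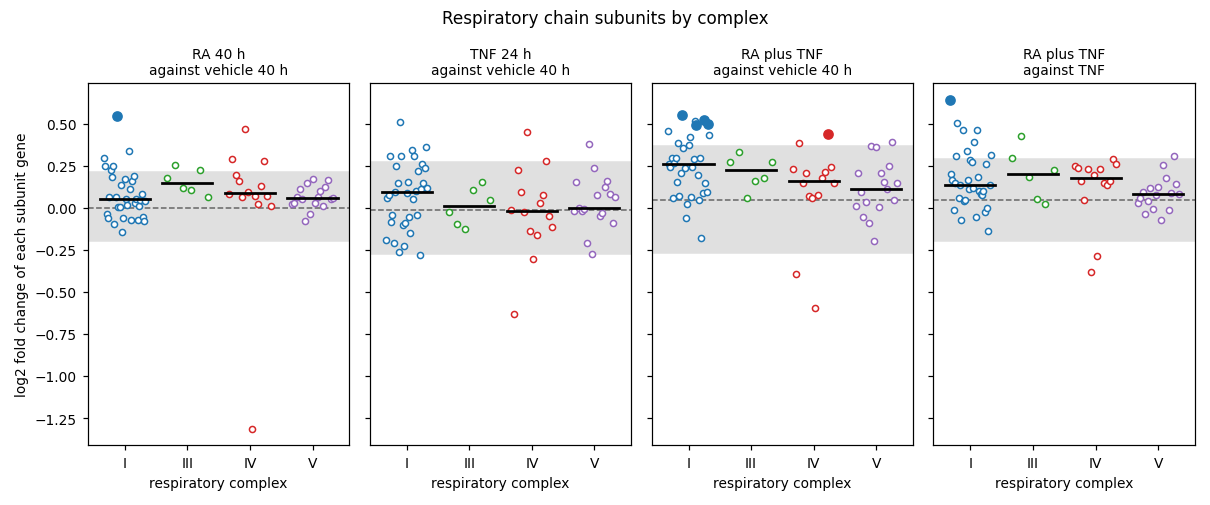
Log2 fold change of each of the 70 subunits tested in 4 comparisons at 40 h, by complex (points). Filled points passed the test, black bars are complex medians, the dashed line is the median of all genes and the grey band their middle quartiles. The filled points are NDUFA8 with RA, NDUFA9, NDUFS6, NDUFV2, NDUFB8 and COX7B with both agents, and NDUFA1 for both agents against TNF.

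NDUFA8 was also called in the RA time course, in which the reference was 8 vehicle wells (5 harvested at 16 h and 3 at 40 h). It read 6.05 and 6.14 at 2 h, 6.30 and 6.58 at 6 h, 5.53, 5.95 and 6.05 at 16 h, and 5.95 and 6.18 at 40 h in set 2. The 16 h vehicle wells read from 5.12 to 5.82. All wells at 2 h, 6 h and 40 h lay above every vehicle well of set 2, as they did for 18.8%, 17.8% and 10% of all genes, and at 16 h the groups overlapped. The difference from vehicle was 0.67 ± 0.20 at 2 h (limma adjusted p = 0.136), 1.01 ± 0.20 at 6 h (limma adjusted p = 0.00145), 0.42 ± 0.17 at 16 h (limma adjusted p = 0.148) and 0.64 ± 0.20 at 40 h (limma adjusted p = 0.0626). Only the value at 6 h was called on the deposited scale. After quantile normalization the differences were 0.31 at 2 h (limma adjusted p = 0.434), 0.56 at 6 h (limma adjusted p = 0.00356), 0.55 at 16 h (limma adjusted p = 0.000397) and 0.46 at 40 h (limma adjusted p = 0.00816), so that the last 3 times were called. In signal units the group means were 1260 ± 178 for vehicle at 16 h (SD, n = 5), 1590 ± 47.5 at 2 h (n = 2), 1910 ± 148 at 6 h (n = 2), 1860 ± 214 at 16 h (n = 3) and 1970 ± 235 at 40 h (n = 5). The 40 h mean pools 3 wells of set 1 with 2 of set 2, while the other groups are of set 2 alone. It is therefore not a further step of the time course. The 40 h RA wells of set 2 and the vehicle wells of set 2 at 40 h also entered the 40 h comparison, so these are not separate measurements.

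**Figure D2:**
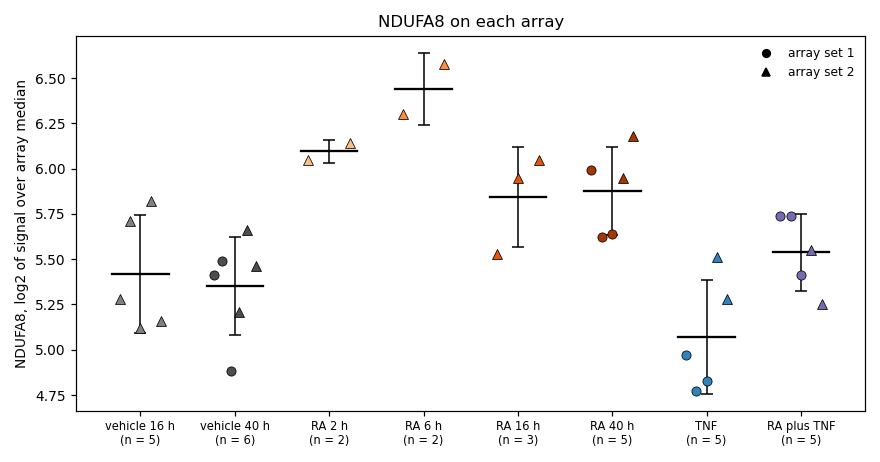
NDUFA8 on each of the 33 arrays (log2 of signal over array median). Circles are arrays of set 1 and triangles of set 2, bars are group means and whiskers 1 SD. The RA groups have means of 5.84 to 6.44, the vehicle groups 5.35 and 5.42, TNF 5.07 and both agents 5.54.

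At 6 h of RA, 5 members were called as higher and none as lower, against 8.21% of all genes called higher and 0.176% lower. Beside NDUFA8 these were UQCR10 of complex III (0.77 ± 0.22, limma adjusted p = 0.0271) and 3 subunits of complex I: NDUFA10 (0.73 ± 0.22), NDUFS1, an iron-sulphur subunit of the peripheral arm (0.70 ± 0.20), and NDUFB8 of the membrane arm (0.67 ± 0.20). UQCR10 read 8.00 and 8.01 at 6 h, against 6.97 to 7.87 in the 16 h vehicle wells. NDUFS1 read 5.12 and 5.45, against 4.2 to 5.03. Both 6 h wells of UQCR10, NDUFS1 and NDUFB8 lay above every vehicle well, and those of NDUFA10 overlapped them. Over the members the median was 0.411, close to the 0.381 of all genes, and 41 of 73 members lay above that median. Both wells lay above every vehicle well for 38 members and for 17.8% of all genes. On recovered signals the member median was -0.001 and NDUFA8 alone was called, as also after quantile normalization. The 5 probe sets of NDUFA10 disagreed, with 3 higher, and their mean was lower by -0.14. Leaving out 1 well gave from 0 to 17 called members: none was called without RA replicate 2 at 6 h and 12 without replicate 1. It was 17 without vehicle replicate 2 at 16 h, 14 without replicate 4 and 3 without replicate 3, and 2 and 3 without vehicle replicates 4 and 6 at 40 h. Time on RA and harvest time cannot be told apart at 2 h and 6 h, where no vehicle well was harvested.

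At 2 h none of 73 members was called (0.84% of all genes higher, 0.024% lower), with 22 members and 18.6% of all genes at an unadjusted p under 0.05. The member median was 0.360 against 0.310 for all genes, and 21 members had both wells above every vehicle well, as did 18.8% of all genes. At 16 h none was called (2.36% of all genes higher, 4.66% lower), with 6 members and 21.7% of all genes at an unadjusted p under 0.05. The lowest p there belonged to NDUFB6, a membrane-arm subunit of complex I, which read 5.01, 5.34 and 5.40 at 16 h of RA, below all vehicle wells as 5.05% of all genes were, with a difference of -0.53 (limma adjusted p = 0.0539). The median difference was -0.113 over the members and -0.166 over all genes. Leaving out vehicle replicate 5 at 16 h gave 3 called members, RA replicate 3 gave 2 and vehicle replicate 6 at 40 h gave 1. At 40 h in the time course none was called (4.45% of all genes higher, 0.672% lower), with 4 members and 14.5% of all genes at an unadjusted p under 0.05, a member median of 0.227 and an all-gene median of 0.15. Leaving out vehicle replicate 2 or 4 at 16 h gave 1 called member. NDUFA3, a small complex I subunit, read 0.57 higher at 40 h (limma adjusted p = 0.132) and was called after quantile normalization (0.37, limma adjusted p = 0.0399). That scaling also called NDUFAB1, the mitochondrial acyl carrier protein, named after its value was seen, as lower at 16 h (-0.30, limma adjusted p = 0.0175).

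**Figure D3:**
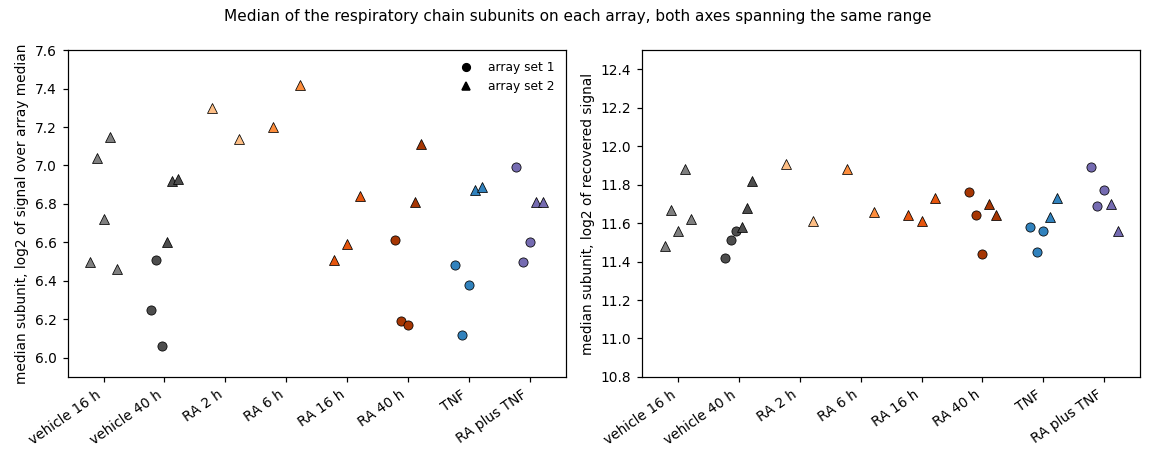
Median over the 70 tested subunits on each array, as deposited (left, log2 of signal over array median) and as recovered signal (right, log2 units), by group. Circles are set 1 and triangles set 2. On the left arrays spread from 6.06 to 7.42, with group means of 7.22 at 2 h and 7.31 at 6 h and a mean of 6.4 over set 1 and 6.89 over set 2, and on the right from 11.42 to 11.91.

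TNF for 24 h called no member on the deposited scale (6.69% of all genes higher, 4.62% lower), with 5 members and 23% of all genes at an unadjusted p under 0.05. The median over the 74 members was 0.052 against -0.011 over all genes, and 67 of 74 intervals lay within 1 log2 unit of 0, against 63% of all genes. The smallest adjusted p was that of NDUFA9, a nucleotide-binding accessory subunit of complex I. It read 3.63, 3.08, 4.08, 4.35 and 4.10 with TNF, against 3.00 to 3.69 with vehicle (median 3.41), so that 4 of 5 TNF wells lay above the vehicle median and 1 at its low end. The difference was 0.51 ± 0.18 (limma adjusted p = 0.0675), with 0.32 in set 1 and 0.75 in set 2. NDUFV2, an iron-sulphur subunit next to the NADH site, read 0.36 ± 0.16 higher (limma adjusted p = 0.141), and NDUFB6 0.34 ± 0.15 (limma adjusted p = 0.152). Leaving out vehicle replicate 2 gave 3 called members and TNF replicate 2 gave 1.

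On the other scalings 3 members were called higher and 3 lower on recovered signals, and 3 higher and 6 lower after quantile normalization, with 6 members called under both. NDUFA12, NDUFS3 and ATP5MC2 are named after their values were seen. NDUFA9, NDUFV2 and NDUFA12 were higher with TNF, by 0.47, 0.29 and 0.22 after quantile normalization. NDUFA8, the core complex I subunit NDUFS3 and ATP5MC2, which encodes the c subunit of the ATP synthase rotor, were lower, with differences of -0.32 (limma adjusted p = 0.0234), -0.34 (limma adjusted p = 0.00487) and -0.32 (limma adjusted p = 0.00104). As deposited these 3 differed by -0.26, -0.28 and -0.27, with limma adjusted p of 0.336, 0.244 and 0.262. In signal units NDUFA8 averaged 1110 ± 79.2 with TNF (n = 5) against 1360 ± 125 with vehicle (n = 6). The deposited values for TNF were 4.97, 4.77 and 4.83 in set 1 and 5.51 and 5.28 in set 2, and 1 of 5 lay above the vehicle median of 5.44. The vehicle wells read 5.41, 5.49 and 4.88 in set 1 and 5.21, 5.66 and 5.46 in set 2, so that the TNF and vehicle wells of set 2 overlapped.

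With RA and TNF together, 5 members rose and none fell, 6.76% of the 74 tested, while 11.7% of all genes rose and 7.42% fell. Of the 5, 4 belonged to complex I (NDUFA9, NDUFS6, NDUFV2 and NDUFB8) and 1 to complex IV (COX7B). On recovered signals 7 members were called higher and 2 lower, and after quantile normalization 9 and 2. All 5 were called as higher on each of the 3 scalings, and for every one all 5 treated wells lay above the vehicle median. With all probe sets of a gene averaged, NDUFB8 and COX7B were not called. NDUFA9, NDUFS6 and NDUFV2, which have 1 probe set each, stayed called. NDUFS6, a zinc-binding subunit of the peripheral arm, read 7.19, 6.86, 6.90, 6.91 and 7.03, against 6.12 to 6.94 with vehicle (median 6.4). Its difference of 0.53 ± 0.14 (limma adjusted p = 0.00758) was the only one of the 5 that stayed called when any 1 well was left out. NDUFV2 read 6.47, 6.07, 6.19, 6.04 and 5.96, above every vehicle well (5.25 to 5.89), as 5.8% of all genes did. It differed by 0.50 ± 0.16 (limma adjusted p = 0.02). NDUFA9 read 4.06, 3.78, 3.53, 4.08 and 3.99, with 1 well inside the vehicle range, and differed by 0.55 ± 0.18 (limma adjusted p = 0.0308). NDUFB8 differed by 0.49 ± 0.16 (limma adjusted p = 0.0242), with 2 of its 3 probe sets higher, and COX7B by 0.44 ± 0.14 (limma adjusted p = 0.0278). The count ran from 1 to 14 when 1 well was left out: without RA plus TNF replicates 1 to 5 in turn it was 1, 2, 3, 8 and 9, and without vehicle replicates 1 to 4 it was 3, 14, 2 and 3.

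**Figure D4:**
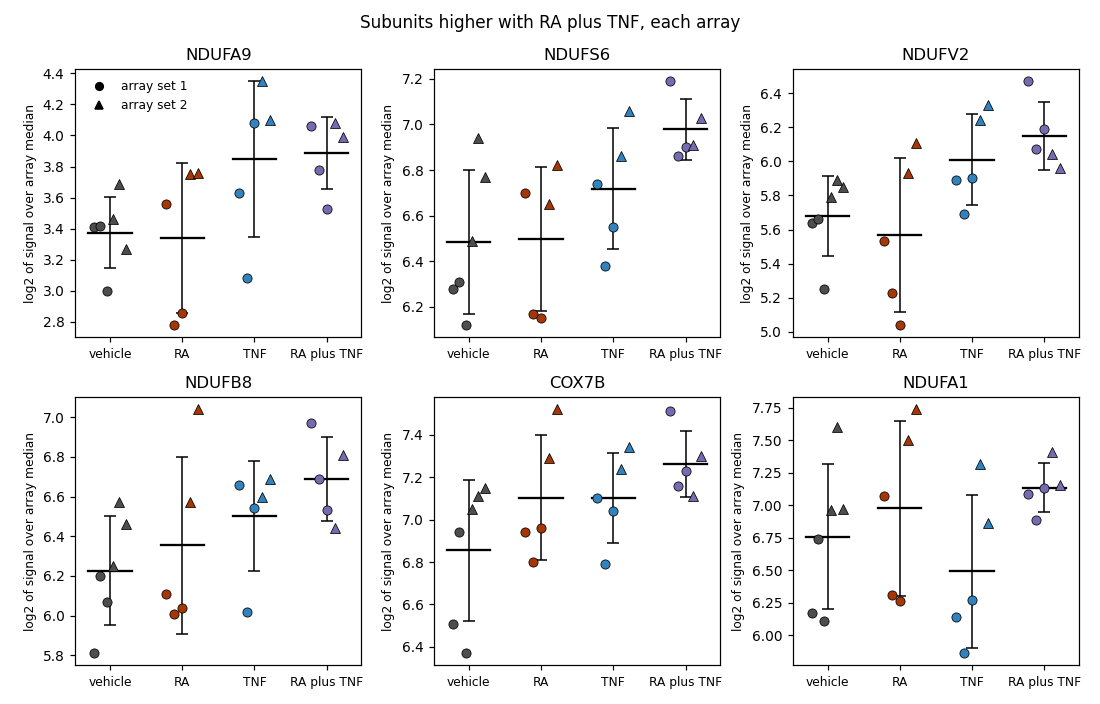
The 5 called subunits and NDUFA1 on each array of the 4 groups at 40 h (log2 of signal over array median). Circles are set 1 and triangles set 2, bars are means and whiskers 1 SD. The RA plus TNF wells lie above the vehicle median in each of the 5 called genes, and NDUFA1 was called against TNF.

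The array sets did not give the same size, nor the same direction for many subunits. The median over the 70 subunits was 0.365 within set 1 and -0.073 within set 2. Within set 1, 67 of 70 subunits lay above 0, and within set 2, 30 did. The difference was higher in set 1 than in set 2 for 67 of 70 subunits. NDUFA9 had 0.51 in set 1 and 0.56 in set 2. NDUFS6 had 0.75 and 0.23, NDUFV2 0.73 and 0.16, NDUFB8 0.70 and 0.20, and COX7B 0.69 and 0.10. All 5 kept their direction, but they had been called in a fit of these same wells. Set 1 alone called 9 members and set 2 alone none, where 2 treated wells met 3 vehicle wells. A test of the difference between the sets, added after the data were seen, called none of the 74 members (23 of 12393 genes). The median of set 2 minus set 1 was -0.433 over the members and -0.076 over all genes. At an unadjusted p under 0.05 there were 22 members, and the share of all genes at such a p was not counted. Without the set as a term no member was called.

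**Figure D5:**
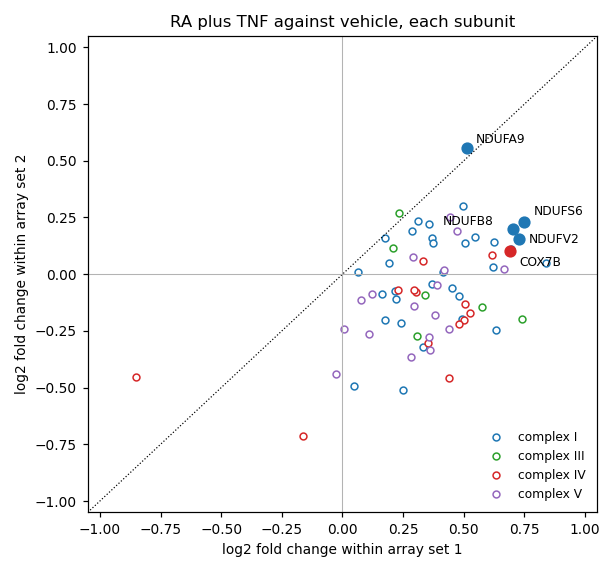
Log2 fold change of each of the 70 subunits for RA plus TNF against vehicle within array set 1 (horizontal) and set 2 (vertical), coloured by complex. Filled points are the 5 called genes and the dotted line marks equal values. Most points lie below the line, and NDUFA9 lies just above it.

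Against TNF alone, RA plus TNF raised 1 member and lowered none, while 4.6% of all genes rose and 2.69% fell. The median over the 70 subunits was 0.312 in set 1, where 66 lay above 0, and -0.15 in set 2, where 17 did. Set 2 minus set 1 had a median of -0.435 over the members and -0.145 over all genes. NDUFA1, a small membrane subunit of complex I, read 7.09, 6.89, 7.13, 7.41 and 7.16 with both, against 6.14, 5.86, 6.27, 7.32 and 6.86 with TNF. All 5 wells with both lay above the TNF median, and 1 TNF well reached into their range. The difference was 0.64 ± 0.19 (limma adjusted p = 0.0240), with 0.94 in set 1 and 0.20 in set 2, and single wells left out ended the call in 6 of 10 cases. No member was called without TNF replicates 1, 2 or 5 or RA plus TNF replicates 1, 2 or 3, while 2 were without TNF replicates 3 or 4 and 3 without RA plus TNF replicate 5. NDUFA8 read 5.74, 5.74, 5.41, 5.55 and 5.25 with both agents, and its difference from TNF was 0.47 ± 0.16 (limma adjusted p = 0.0778). That difference was called on recovered signals (0.40, limma adjusted p = 0.0175) and after quantile normalization (0.36, limma adjusted p = 0.0205), but was 0.77 in set 1 and 0.004 in set 2. NDUFA3 and NDUFB5 were likewise called only on the other scalings, at 0.39 and 0.30 after quantile normalization.

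Against RA alone, RA plus TNF raised 3 members and lowered none, while 7.63% of all genes rose and 4.55% fell. The sets differed over the 70 subunits. Their median was 0.359 in set 1, where 65 lay above 0, and -0.271 in set 2, where 6 did. Set 2 minus set 1 had a median of -0.611 over the members and -0.334 over all genes. NDUFV2 read 5.53, 5.23, 5.04, 5.93 and 6.11 with RA, below the wells with both agents except for the last, and differed by 0.58 ± 0.16 (limma adjusted p = 0.0130). In set 1 its difference was 0.98 and in set 2 -0.02, a change of sign. NDUFS6 read 6.70, 6.17, 6.15, 6.65 and 6.82 with RA, all below the wells with both, and differed by 0.48 ± 0.15 (limma adjusted p = 0.0298), and 3.58% of all genes had such a gap. NDUFA6, an accessory subunit of the peripheral arm, differed by 0.48 ± 0.16 (limma adjusted p = 0.0471), with 0.75 in set 1 and 0.09 in set 2. NDUFA8 ran the other way, by -0.34 ± 0.16 (limma adjusted p = 0.189), and was called lower on recovered signals (-0.42, limma adjusted p = 0.00787) and after quantile normalization (-0.48, limma adjusted p = 0.00121). Recovered signals called 5 members higher and 2 lower, and quantile normalization 4 and 4. Without RA plus TNF replicates 1 to 5 in turn 0, 1, 1, 5 and 5 were called, and without RA replicates 2 to 5 there were 1, 0, 1 and 5. These comparisons share wells and are not separate evidence.

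The interaction, the RA effect with TNF minus that without it, called no member (0.266% of all genes higher, 0.161% lower), with 1 member and 7.34% of all genes at an unadjusted p under 0.05. For NDUFA8 it was -0.08 ± 0.22 (limma adjusted p = 0.979), with a 95% interval from -0.54 to 0.37. The member median was 0.061 and that of all genes 0.044. Over the 70 subunits it was 0.335 in set 1 and -0.35 in set 2.

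Among the genes of the symbol rule, on the deposited scale, complexes III and V had no called member in any comparison at 40 h. Complex IV had COX7B alone. Cytochrome c1 of complex III (CYC1), whose symbol lay outside the rule, was called with both agents and is given with the lists below. With both agents the complex III subunits had a median of 0.225 (all 6 above 0), with UQCR11, named like COX5A and ATP5PD after its value was seen, at 0.33 ± 0.17 (limma adjusted p = 0.182). In complex IV COX5A, a structural subunit, read 0.39 ± 0.15 higher (limma adjusted p = 0.0781), and was called after quantile normalization (0.25, limma adjusted p = 0.017). In complex V, ATP5PD of the peripheral stalk read 0.39 ± 0.15 higher (limma adjusted p = 0.0634) with 1 of its 2 probe sets higher, while ATP5MC2 read -0.20 ± 0.15 (limma adjusted p = 0.402). The last was called lower after quantile normalization (-0.33, limma adjusted p = 0.000498), where ATP5PD was called higher (0.23, limma adjusted p = 0.0193). ATP5IF1, which inhibits ATP synthase when the membrane is de-energized, differed by -0.08 ± 0.14 with RA, -0.21 ± 0.14 with TNF and -0.09 ± 0.14 with both, with 2, 3 and 2 of 3 probe sets of that sign, and was not called (limma adjusted p = 0.917, 0.419 and 0.735).

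Isoforms restricted to other tissues were dim. COX4I2, the lung form of a regulatory complex IV subunit, averaged 70.3 units, the muscle form COX6A2 51.4 and the testis form COX6B2 32.2. COX7A1, COX7B2 and COX8C averaged 7.25, 20.7 and 11.9 units and fell below the brightness filter. The pseudogene COX6A1P1 and ATP5MF of complex V did so too, and neither is such an isoform. ATP5MF averaged 9.17 units on its only single-symbol probe set, and how well that probe set reads the gene was not tested. COX4I2 read -0.63 ± 0.34 with TNF (limma adjusted p = 0.266) and COX6B2 -1.31 ± 0.72 with RA (limma adjusted p = 0.453), both within wide intervals, and no such isoform was called. Of the transcripts that share only the letters, NDUFB2-AS1 had the smallest p for the interaction, -1.42 ± 0.58 (limma adjusted p = 0.537), at a mean of 59.3 units.

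Lists of genes around the chain were counted against the same all-gene shares, 6.69% higher and 4.62% lower with TNF and 11.7% and 7.42% with both agents. Of 33 assembly factors of complexes III, IV and V tested, 2 rose and 1 fell with TNF, close to those shares, and 6 rose with both agents. On each of the other scalings 4 were higher and 2 lower with TNF. BCS1L, which inserts the Rieske protein into complex III, rose by 0.68 ± 0.18 (limma adjusted p = 0.0098), and SCO2, a copper chaperone of complex IV, by 0.60 ± 0.18 (limma adjusted p = 0.0202). COX20, which helps to mature a core subunit of complex IV, fell by 0.72 on the log2 scale (SE 0.19, limma adjusted p = 0.0083). Among 16 complex I assembly factors NDUFAF4 alone rose (0.50 ± 0.16, limma adjusted p = 0.0406). Of 75 mitochondrial ribosomal proteins 8 rose with TNF, where 6.69% of all genes did, and none fell, with a median of 0.251. With both agents 17 rose, where 11.7% of all genes did. After quantile normalization 17 were higher and 2 lower with TNF, and 17 and 5 with both. Those higher with TNF included MRPL14 (0.73 ± 0.17, limma adjusted p = 0.00269) and MRPS25 (0.68 ± 0.15, limma adjusted p = 0.00156). Of 59 cytosolic ribosomal proteins none was called on the deposited scale with TNF, with a median of -0.086, nor with RA or both agents. After quantile normalization 2 were lower with RA, 1 higher and 2 lower with TNF, and 4 lower with both. On recovered signals 1 was lower with RA, 1 higher and 1 lower with TNF, and 2 lower with both.

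The antioxidant enzymes showed the largest differences of these lists with TNF, with 2 of 9 higher and 2 lower. SOD2, the manganese superoxide dismutase of the matrix, ran from 0.97 to 2.48 with vehicle and from 3.00 to 3.96 with TNF, a rise of 1.59 ± 0.28 (limma adjusted p = 9.54e-05), and with both agents from 3.20 to 5.61, higher than with TNF by 1.12 ± 0.29 (limma adjusted p = 0.0112). CAT, catalase, ran from 7.56 to 8.55 with vehicle and from 6.20 to 7.29 with TNF, and fell by 1.49 on the log2 scale (SE 0.16, limma adjusted p = 1.15e-08). GLRX2 rose by 0.58 ± 0.16 (limma adjusted p = 0.0109), and NNT, the proton-driven transhydrogenase that feeds NADPH to the matrix and is named after its value was seen, fell by 0.55 on the log2 scale (SE 0.18, limma adjusted p = 0.0388).

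With RA alone, on the deposited scale, none of the mitochondrial lists held a called gene apart from MRPS6 of the mitochondrial ribosome, which rose by 1.77 ± 0.19 (limma adjusted p = 8.46e-09), from 3.45 to 4.82 with vehicle to between 5.2 and 6.61 with RA. RefSeq places SLC5A3, an inositol transporter gene, over the same stretch, and which transcript the probe set read was not tested. Both other scalings also called 1 gene higher among complex II, among the assembly factors of complexes III, IV and V and among the nuclear regulators. Of the antioxidant enzymes they called 1 lower, and quantile normalization 1 higher. SDHD, a membrane anchor of complex II, read 0.51 ± 0.16 higher with RA (limma adjusted p = 0.0733) and rose against TNF with both agents (0.54 ± 0.17, limma adjusted p = 0.0459). PPARGC1B, a coactivator of mitochondrial genes, read 0.84 ± 0.25 higher with RA (limma adjusted p = 0.0536). Cytochrome c (CYCS) and cytochrome c1 (CYC1) rose with both agents, by 0.49 ± 0.16 (limma adjusted p = 0.0319) and 0.62 ± 0.17 (limma adjusted p = 0.00846). CYC1 is a complex III subunit that the symbol rule did not take in.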

How the data were processed

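RNA from 33 wells was hybridised to Affymetrix HG-U133 Plus 2 arrays. Signals came from GCOS, per the submitters' processing notes; no version or centring step was stated. The deposited values are log2 ratios to each array's median, as read from the values, whose medians are 0. To recover signals, the lowest value of an array was set to 1 unit and the log2 undone. The members and gene lists were chosen with earlier results of these data known.

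Genes entered limma 3.58.1 (R 4.3.3) as deposited, above the median brightness of all probe sets. The 40 h fit used 21 arrays with the array set as covariate, and the time course 17 arrays of set 2. Calls are limma's with Benjamini-Hochberg adjustment under 0.05. Named members are the largest called changes per comparison, or the 3 smallest adjusted p-values where fewer than 3 were called, plus tissue isoforms and up to 3 genes a list; others are marked as named after their values were seen. The code was tested on simulated data. Alternatives were quantile, recovered-signal and re-centred scaling, the filter, all probe sets averaged, no trend, a replicate block, each array set, other vehicles and wells left out. The number of arrays limits the precision.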

Additional observations from a re-analysis of the deposited data

Results flagged for a closer look

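Within groups of 4 to 10 arrays, 90 tests of the named members and of the median subunit picked 3 values, in 2 wells, as standing apart from their group by Dixon's ratio, and chance picks about 1 in 20. NDUFB7 read 3.81 in TNF replicate 2, with the nearest other TNF well at 4.96. NDUFB8 read 6.02 in the same well, with the nearest at 6.54. NDUFS1 read 3.62 in vehicle replicate 3 at 40 h, with the nearest at 4.26.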

How the results depend on the processing

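The counts of called members depended on the scaling. On recovered signals they were 2 for RA, 6 for TNF, 9 for RA plus TNF, 4 against TNF, 7 against RA, and 1 each at 6 h, 16 h and 40 h of the time course. After quantile normalization they were 3, 9, 11, 6, 8, 1, 2 and 2 in that order, and with arrays re-centred on the genes tested 2, 5, 11, 4, 8, 1, 1 and 1. Without the brightness filter 1 was called against RA and 3 at 6 h, and with a filter at the 75th percentile 1 for TNF, 13 at 6 h and 1 each at 16 h and 40 h. With the mean of all probe sets there were 2 for RA, 3 for RA plus TNF, 0 against TNF and 3 at 6 h, and without the intensity trend 0, 3, 0 and 1. Of the members called at 6 h in the main fit, the mean of all probe sets kept NDUFA8 alone. Arrays of the same group correlated at 0.86 to 0.936 in their gene values. A check for pairing by number gave far smaller values, so it did not correlate those gene values directly. In that check same-numbered arrays had a median correlation of -0.062 at 40 h (differently numbered -0.058) and 0.048 in the time course (-0.014). In the time course 4 of 17 same-numbered pairs were over 0.1, against 2 of 85 differently numbered pairs. The main fits did not pair arrays by number, and these values do not settle whether same-numbered wells of the time course belong together. The replicate block gave 0 for RA and 1 at 6 h, and moved no other count by more than 1.5 times. Without the array set as a term RA, RA plus TNF and both comparisons against single agents had 0. Set 1 alone gave 0 for RA, 9 for RA plus TNF, 2 against TNF and 6 against RA, and set 2 alone 0, 0, 0 and 0, with 1 for TNF. With the 16 h vehicles as the only reference 1 was called at 6 h. Leaving out 1 array gave 0 to 1 for RA, 0 to 3 for TNF, 1 to 14 for RA plus TNF, 0 to 3 against TNF, 0 to 5 against RA, 0 to 17 at 6 h, 0 to 3 at 16 h, 0 to 1 at 40 h of the time course, and 0 throughout for the interaction and 2 h. Directions turned for NDUFB7 in the interaction (-0.70 with the mean of probe sets, -0.29 in set 2), NDUFV2 against RA in set 2 (-0.018) and NDUFA10 with the mean of probe sets (-0.038 at 2 h, -0.14 at 6 h). Apart from what each setting leaves out, the cause was not tested.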
